A study of Mus musculus with 9 samples.

Results

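The 10 genes described here encode the machinery by which cells display peptides on major histocompatibility complex (MHC) molecules. They were chosen by symbol, as the rows named H2-K1, H2-D1, H2-T22, H2-T23, B2m, Tap1, Tap2, H2-Aa, H2-Ab1 and Cd74 among 24532 genes listed for each mouse, and all 10 were found in all 9 mice. Expression was measured by bulk RNA sequencing of the medial prefrontal cortex (mPFC) of mice aged 11 weeks, labelled C57BL/6 and given as C57BL/6J in the study's methods, with 3 mice in each of 3 groups, named below by group and replicate number. CT mice were wild type and unstressed. WT_ST mice were wild type and underwent restraint for 6 h a day over 3 weeks, and KO_ST mice lacked Fkbp5 (Fkbp5-/-) and underwent the same restraint. All mice were male, and unstressed mice went without food and water while the others were restrained. The Fkbp5 deletion is present in every cell of the animal rather than in a chosen cell type, the knockout line had been backcrossed to C57BL/6J, and all mice came from crosses of heterozygous parents. There was no unstressed Fkbp5-/- group, so the effect of genotype without stress was not measured.

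Class I molecules present peptides from inside the cell. Their heavy chain, here H2-K1 and H2-D1 (the classical chains) or H2-T22 and H2-T23 (nonclassical chains, the last encoding Qa-1), pairs with B2m, the β2-microglobulin light chain, in the endoplasmic reticulum. The classical chains and Qa-1 are then loaded with peptides that the Tap1 and Tap2 transporter carries in, whereas the product of H2-T22 folds without peptide. Class II molecules present peptides taken up from outside, through the H2-Aa and H2-Ab1 chains, which the invariant chain Cd74 escorts until peptide is loaded. In brain, class I genes are expressed in many cell types, neurons included, whereas class II genes are largely restricted to macrophages at the borders of the tissue and to activated microglia. Fkbp5 encodes a co-chaperone of the glucocorticoid receptor.

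Stretches upstream of listed starts of the genes are shown because those of the classical chains H2-K1 and H2-D1 are closely alike, whereas the levels of these genes, given further on, differed from mouse to mouse. Upstream sequence was available from RefSeq for 7 of the 10 genes (build GRCm38.p6), and 6 are given as 250 bases, 5′ to 3′ on the strand of the gene, ending at the base before the listed start (for H2-K1, the farther upstream of 2). Capitals mark matches on either strand to any of 5 motifs: GGGGATTCC (a kappaB site), GAANNGAAA and GAAANNGAA (forms of the interferon-stimulated response element), TGACG (the core of a cyclic AMP response element) and CCAAT; in H2-Aa, the matches to TGACG on both strands overlap.
H2-K1: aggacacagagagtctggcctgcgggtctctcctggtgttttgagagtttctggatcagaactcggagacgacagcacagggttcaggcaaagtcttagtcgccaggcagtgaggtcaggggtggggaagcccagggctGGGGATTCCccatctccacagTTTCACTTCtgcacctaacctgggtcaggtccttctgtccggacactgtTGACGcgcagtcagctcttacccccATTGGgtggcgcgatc
H2-D1: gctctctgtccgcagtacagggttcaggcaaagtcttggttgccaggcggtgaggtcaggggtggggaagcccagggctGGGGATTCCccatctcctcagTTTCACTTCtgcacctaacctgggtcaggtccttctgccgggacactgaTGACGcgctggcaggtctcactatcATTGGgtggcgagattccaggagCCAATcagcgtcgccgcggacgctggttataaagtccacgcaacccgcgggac
B2m: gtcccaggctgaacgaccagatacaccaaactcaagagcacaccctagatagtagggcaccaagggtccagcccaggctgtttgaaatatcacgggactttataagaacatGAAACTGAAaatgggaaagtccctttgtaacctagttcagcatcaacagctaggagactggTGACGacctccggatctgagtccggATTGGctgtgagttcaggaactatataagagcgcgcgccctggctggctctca
H2-T22: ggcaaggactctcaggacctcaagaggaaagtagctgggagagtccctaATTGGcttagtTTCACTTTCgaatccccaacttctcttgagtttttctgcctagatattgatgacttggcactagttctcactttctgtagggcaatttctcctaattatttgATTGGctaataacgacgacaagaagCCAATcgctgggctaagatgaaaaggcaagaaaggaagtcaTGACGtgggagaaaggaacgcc
H2-T23: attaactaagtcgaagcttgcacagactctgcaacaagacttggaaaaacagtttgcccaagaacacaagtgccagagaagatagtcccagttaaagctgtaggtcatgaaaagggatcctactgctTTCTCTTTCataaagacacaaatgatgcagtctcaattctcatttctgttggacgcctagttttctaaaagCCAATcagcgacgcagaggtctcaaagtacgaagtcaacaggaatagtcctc
H2-Aa: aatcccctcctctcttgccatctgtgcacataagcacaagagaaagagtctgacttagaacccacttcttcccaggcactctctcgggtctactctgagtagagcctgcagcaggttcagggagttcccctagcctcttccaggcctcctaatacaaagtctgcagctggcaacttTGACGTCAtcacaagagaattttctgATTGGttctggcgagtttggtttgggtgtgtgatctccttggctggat
The H2-K1 stretch lies at chr17:34000348-34000597 on the minus strand and that of H2-D1 at chr17:35262844-35263093 on the plus strand. The H2-K1 stretch is upstream of a listed start but inside the map span of the gene, 33996012 to 34000619. The B2m stretch is chr2:122147437-122147686 (plus), that of H2-T22 chr17:36042743-36042992 (minus), that of H2-T23 chr17:36032702-36032951 (minus) and that of H2-Aa chr17:34287824-34288073 (minus). H2-K1 and H2-D1 were identical at 161 of 177 aligned positions (90.96%), against 66 of 102 for H2-D1 with H2-T22. The kappaB letters GGGGATTCC were found upstream of H2-K1 and H2-D1 only, among the 7 genes, and in 0.213% of 32851 mouse promoters. GAANNGAAA was likewise found at H2-K1 and H2-D1 (6.31% of promoters), and GAAANNGAA at B2m, H2-T22 and H2-T23 (7.13% of promoters). CCAAT was found at all 7 genes (33.85% of promoters) and TGACG at 6 of the 7, not at H2-T23 (17.77% of promoters). A glucocorticoid response element, spelled AGAACA and then TGTTC after 3 bases of any kind, was found at none of the 7 genes and in 0.0304% of promoters.

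Between 43778471 and 61150128 reads per mouse were assigned to genes, and 14370 genes with a mean of at least 30 reads per mouse were tested. Levels are given as FPKM, fragments scaled by transcript length and by the depth of the library, so that they can be compared between genes. Fkbp5, the deleted gene, was at 6.46 to 7.61 FPKM in CT, 9.47 to 10.25 in WT_ST and 3.59 to 4.69 in KO_ST mice, and the ranges of the 3 groups did not overlap. KO_ST mice still held 625 to 907 reads of the gene. These values cover the whole gene and were not read inside the deleted part, so they are lower in the mice labelled Fkbp5-/- but do not show the loss of the gene. Markers of neurons summed to between 2177 and 2887 FPKM and those of choroid plexus and ependyma to at most 2.33 FPKM. One unstressed mouse, CT 3, stood apart in its markers of blood cells. Its 6 monocyte and neutrophil markers summed to 64.4 FPKM, against 3.62 to 11.4 in the other 8 mice, and its 5 red blood cell markers to 774.9 FPKM, against 82.8 to 498.8.

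All 10 genes passed the filter on reads, with B2m the most abundant (mean of 57.1 FPKM over 9 mice) and Tap1 the least (0.806 FPKM). The lowest B2m value, 45.3 FPKM, lay above the highest H2-D1 value, 35.4 FPKM. H2-D1 (mean of 22.8 FPKM) was above H2-K1 (10.3 FPKM) in 9 of 9 mice, although the ranges of the genes overlapped. H2-T23 followed at 9.13 FPKM, H2-T22 at 3.05, Tap2 at 2.34 and Cd74 at 2.19, then H2-Aa at 1.29 and H2-Ab1 at 1.14 FPKM. Below B2m, every gene overlapped in range with its neighbour in this order. The class II chains rested on few reads, 31 to 140 per mouse for H2-Aa and 30 to 139 for H2-Ab1, and B2m on 1762 to 3348.

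**Figure D1:**
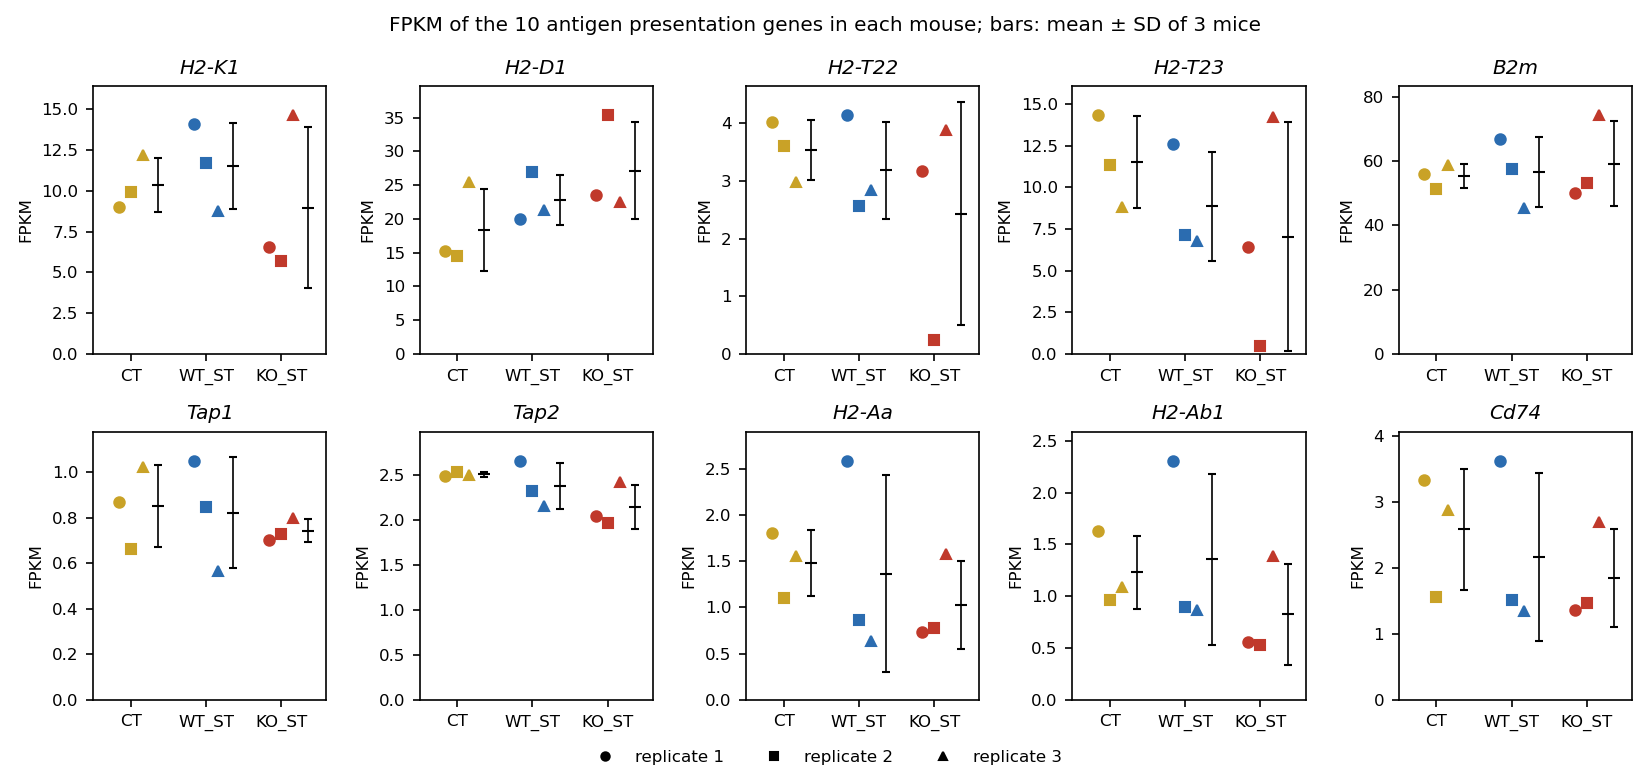
FPKM (vertical axis, from 0) of each of the 10 genes in the 3 mice of each group, with replicates 1, 2 and 3 as circles, squares and triangles and the mean ± SD of 3 mice beside them. The mice of a group are spread widely for most genes, and KO_ST 2 (red square) lies near 0 for H2-T22 and H2-T23.

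With 2 groups compared at a time, no member of the list was called in any comparison. The call was an unadjusted p under 0.05 with a fold change above 1.2 in limma on quantile-normalized log2(FPKM+1) values, and fold changes below are on that scale, on which the changes of low genes are understated. It took 355 of 14370 genes in WT_ST against CT (2.47%), 512 in KO_ST against CT (3.56%) and 287 in KO_ST against WT_ST (2.0%). By unadjusted p under 0.05 alone in limma, which 7.86%, 9.46% and 5.82% of all tested genes passed in these comparisons, 0 of the 10 genes passed. The call on read counts likewise took 0 of the 10 genes in each comparison, both in edgeR (3.72%, 4.63% and 2.96% of all tested genes) and in DESeq2 (3.84%, 5.14% and 2.85%). With all 9 mice in 1 limma fit, 1 member was called, H2-D1 in KO_ST against CT. The lowest Benjamini-Hochberg adjusted p among the members in limma with 2 groups at a time was 0.533. The median log2 fold change over the 10 genes was -0.005 in WT_ST against CT, -0.26 in KO_ST against CT and -0.13 in KO_ST against WT_ST, beside medians over all tested genes of 0.003, 0.002 and -0.001. In WT_ST against CT, 5 of the estimates were above 0 and 5 below, and that of Tap1 (0.01) was below 0 without quantile normalization and in edgeR and DESeq2. In both comparisons of KO_ST, 8 were below 0 and those of H2-D1 and B2m above it. The KO_ST mice are shared by these comparisons, and the CT and WT_ST mice each serve in 2 of the 3. Replicates were taken as separate mice, which the labels do not state, and p-values measure only the spread between these samples.

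**Figure D2:**
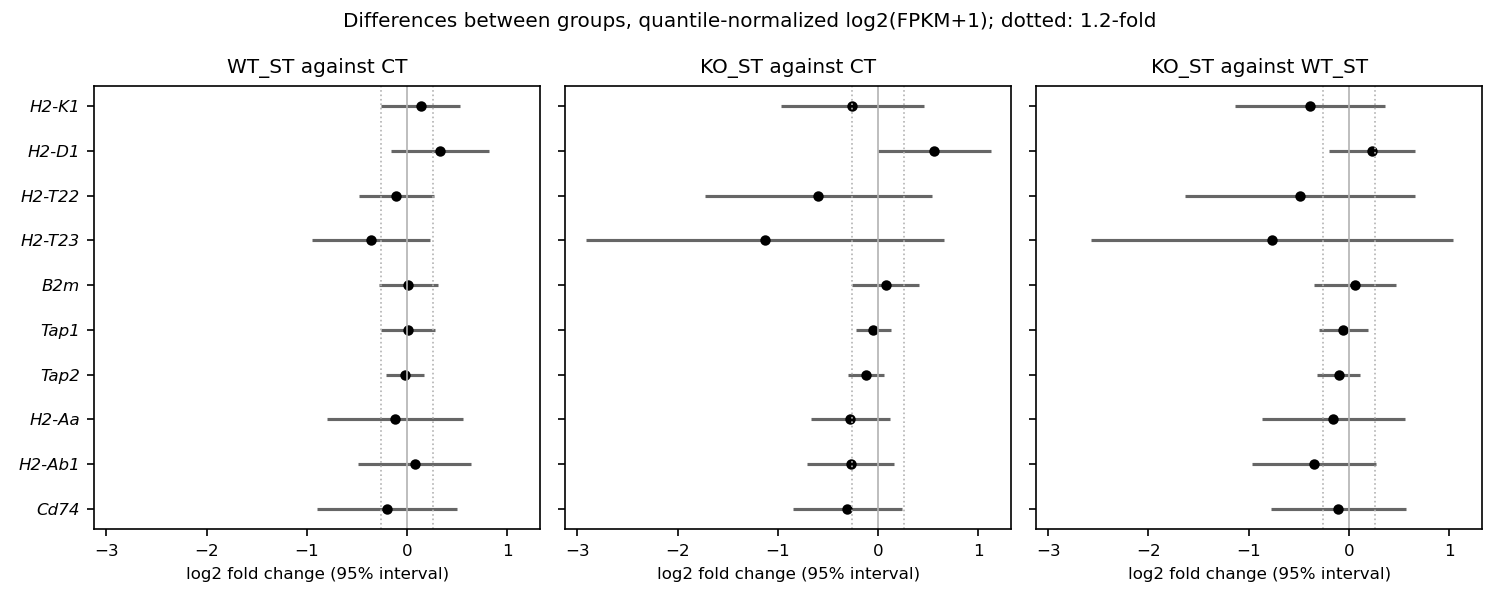
Difference between groups in quantile-normalized log2(FPKM+1) (horizontal axis) for the 10 genes in 3 comparisons, with points for the estimate, lines for the 95% interval of limma and dotted lines at a fold change of 1.2. Every interval includes 0, and those of H2-T22 and H2-T23 are the widest in both comparisons of KO_ST.

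Of the classical class I chains, H2-D1 was at 15.3, 14.5 and 25.4 FPKM in the 3 CT mice, at 20.0, 26.9 and 21.3 in WT_ST and at 23.6, 35.4 and 22.5 in KO_ST. CT overlapped with the stressed groups through CT 3 alone, since the other 2 CT mice lay below every stressed mouse. WT_ST and KO_ST overlapped with each other. The group values were 18.4 ± 6.08 FPKM in CT, 22.8 ± 3.67 in WT_ST and 27.2 ± 7.17 in KO_ST (SD, n = 3 each). H2-D1 came nearest to the call of the 10 genes: in KO_ST against CT its log2 fold change was 0.56 (SE 0.24), with an adjusted p of 0.533 in limma and a 95% interval of -0.004 to 1.13. In WT_ST against CT it was 0.33 (SE 0.21) and in KO_ST against WT_ST 0.23 (SE 0.18). Without CT 3, the gene passed the call in KO_ST against CT (0.80) and in WT_ST against CT (0.57), and without KO_ST 3 in KO_ST against CT (0.68). The smallest values with a mouse left out were 0.36 in KO_ST against CT, without KO_ST 2, 0.19 in WT_ST against CT, without CT 2, and 0.028 in KO_ST against WT_ST, without KO_ST 2. CT 3 is the mouse with the high blood cell markers. It also had the highest sums of the 9 mice for markers of oligodendrocytes (788.8 FPKM, against 428.5 and 413.4 in the other CT mice), microglia (188.5, against 153.3 in both) and astrocytes (252.1, against 216.7 and 230.6). The part of these cells in its H2-D1 level was not tested.

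H2-K1, the other classical chain, was at 8.99, 9.90 and 12.2 FPKM in CT, at 14.1, 11.7 and 8.78 in WT_ST and at 6.58, 5.67 and 14.7 in KO_ST. Both the lowest and the highest of the 9 values were in KO_ST mice, so that this group enclosed the other 2. Its log2 fold change was 0.13 (SE 0.17) in WT_ST against CT, -0.25 (SE 0.30) in KO_ST against CT and -0.39 (SE 0.32) in KO_ST against WT_ST. Without KO_ST 3, H2-K1 passed the call at -0.63 against CT and -0.77 against WT_ST, while without KO_ST 2 the values were -0.022 and -0.16. Although their upstream stretches printed above are closely alike, no correlation of H2-K1 with H2-D1 over the 9 mice was detected. Pearson's r was -0.30 and Spearman's rho -0.22, with adjusted p of 0.530 and 0.697 by exact permutation over a family of 6 pairs. Without the 2 mice farthest from the median of H2-K1 (KO_ST 2 and KO_ST 3), r was 0.13. Within groups, on deviations from group means, r was -0.21, and 0.43 without KO_ST 2 and KO_ST 3.

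H2-T23, the Qa-1 chain, which presents peptides to receptors of natural killer cells, was at 14.4, 11.3 and 8.83 FPKM in CT and at 12.6, 7.16 and 6.78 in WT_ST. In KO_ST it was at 6.43, 0.487 and 14.2 FPKM. KO_ST 2 held 31 reads of the gene, with an exact Poisson interval of 21.1 to 44.0 that covers counting error only, and every other mouse at least 379. That mouse was 20.7-fold under the median of the other 8. Reads were matched to the reference genome. Low expression and a sequence of this mouse that differs from the reference therefore cannot be told apart in its near-absent counts of H2-T23, H2-T22 and, further on, H2-T9. The same limit applies to its levels of other H2 genes, H2-K1, H2-D1, H2-Q1, H2-Eb1 and H2-DMb1 among them. H2-T22, whose product can be bound by γδ T cells, was at 4.02, 3.61 and 2.98 FPKM in CT, at 4.15, 2.57 and 2.84 in WT_ST and at 3.18, 0.238 and 3.89 in KO_ST. Again KO_ST 2 alone was low, with 33 reads (interval 22.7 to 46.3) against at least 324 elsewhere, 14.3-fold under the median of the others. The other 2 KO_ST mice lay inside the range of the 6 wild-type mice for H2-T22, and for H2-T23 KO_ST 1 was below that range and KO_ST 3 inside it.

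The estimates for KO_ST rested on this mouse. In KO_ST against CT, the log2 fold change of H2-T23 was -1.13 (SE 0.76) and that of H2-T22 -0.59 (SE 0.48). Without KO_ST 2 they were -0.18 and 0.03. Against WT_ST they were -0.77 and -0.49 with all mice and 0.18 and 0.14 without KO_ST 2. H2-T23 passed the call without KO_ST 3 in KO_ST against CT (-1.86) and without WT_ST 1 in WT_ST against CT (-0.62, beside -0.36 with all mice and -0.20 without CT 1). The pooled SD within groups of H2-T23 was 1.04 on the log2 scale, above that of 99.8% of tested genes, and that of H2-T22 was 0.66, above 99.4%. The median over all tested genes was 0.091.

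KO_ST 2 was also the mouse with the highest H2-D1 and the lowest H2-K1 level of the 9. Among all tested genes it fell to less than 0.1 of the median of the other mice in 20 of 14370, 2 of them H2-T22 and H2-T23. Further class I heavy chains were looked at per mouse after these values were seen. H2-T9, a close relative of H2-T22, had 0 reads in KO_ST 2 and 73 in KO_ST 1 (0.995 FPKM), against 172 to 645 reads in the other 7 mice (2.31 to 6.28 FPKM). H2-Q1 also had 0 reads in KO_ST 2, against 19 to 51 reads in the others. H2-T10, by contrast, was highest in that mouse (0.831 FPKM, against 0.329 to 0.654), and H2-Q4, at 1.48 FPKM, lay inside the range of the others. H2-Q10, with too few reads to be tested, was also highest there, with 56 reads (0.808 FPKM) against 0 to 25 (0 to 0.373 FPKM). Of the 101-base windows of annotated H2-T22 transcripts, as long as a read, 8.56% also occurred in another gene, mostly H2-T10. The share was 3.05% for H2-T23, 3.55% for H2-D1 and 0.905% for H2-K1, and 0 for the other 6 members. Reads in such stretches cannot be assigned to 1 gene with certainty. The annotated transcripts held none named H2-T9, so windows shared with H2-T9 were not counted. H2-T22, H2-T9 and H2-T10 together summed to 1.07 FPKM in KO_ST 2. This sum was 4.75 FPKM in KO_ST 1, 9.92 in KO_ST 3 and 5.53 to 10.8 in the wild-type mice, so KO_ST 1 was also below them.

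**Figure D3:**
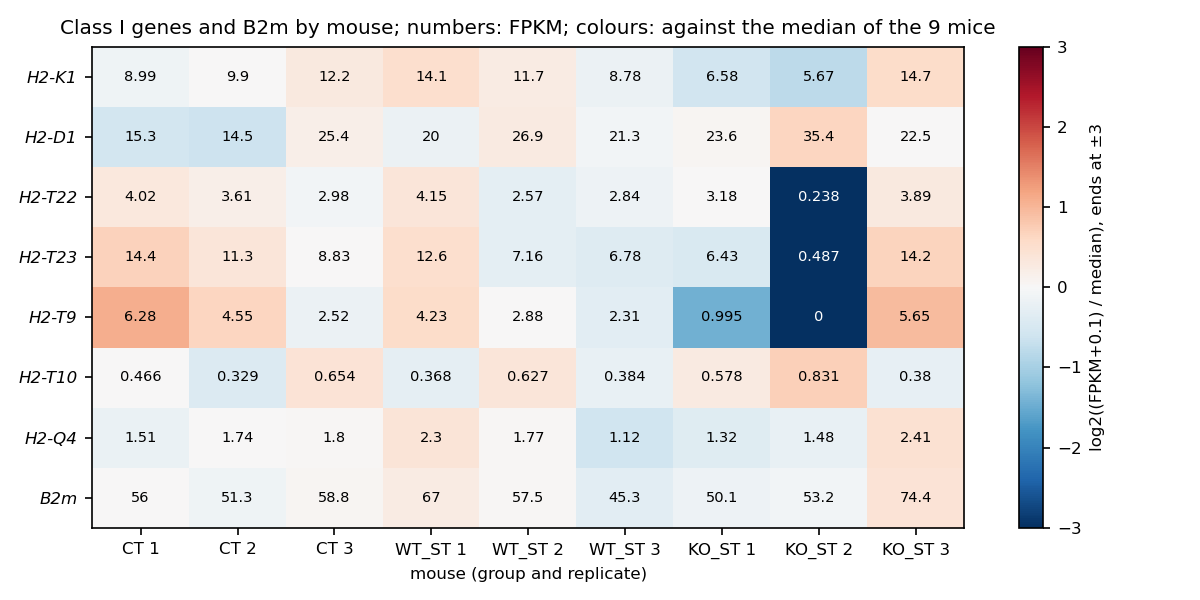
FPKM of 7 class I heavy chain genes and B2m (rows) in each of the 9 mice (columns), with colour for the log2 ratio of FPKM+0.1 to the median of the 9 mice. KO_ST 2 is dark blue for H2-T22, H2-T23 and H2-T9, pale blue for H2-K1 and pale red for H2-D1 and H2-T10, whereas its B2m is near the median.

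The levels of H2-T22 and H2-T23 went together over the mice (r = 0.98) and those of H2-T23 and H2-D1 went in opposite directions (r = -0.78), both pairs having been chosen after their values were seen and so given as a description. With WT_ST 1 and KO_ST 2 left out, r was 0.87 for the first pair, and with KO_ST 2 and KO_ST 3 left out it was -0.77 for the second. On FPKM, r of the second pair was -0.82 with all mice and -0.46 with CT 1 and KO_ST 2 left out.

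All H2 and Tap members lie on chromosome 17, which also carries Fkbp5, between H2-K1 (33996012 to 34000619) and H2-T22 (36037128 to 36042742, GRCm38). They start 5.60 to 7.64 Mb from the position at which Fkbp5 starts on the map (28398753 to 28486149). In the span from H2-K1 to H2-T22, 78 other genes were tested, and 2 were called in WT_ST against CT, 5 in KO_ST against CT and 1 in KO_ST against WT_ST, beside 2.47%, 3.56% and 2.0% of all tested genes. Of 78 genes these counts are few, and nothing particular to the span is read from them. Named after their values were seen, the 2 in WT_ST against CT were C4b, a complement component (log2 fold change 0.36, limma adjusted p = 0.635), and BC051142 (0.37, adjusted p = 0.634). The 5 in KO_ST against CT were H2-DMb1 (-0.57), Ring1 (-0.39), a Polycomb subunit, Gpsm3 (-0.40) and Clic1 (-0.29), which were lower, and BC051142 (0.39), which was higher, with adjusted p from 0.470 to 0.501 in limma. Gpsm3 was the gene called in KO_ST against WT_ST (-0.34, limma adjusted p = 0.753). KO_ST 2 had the lowest or the highest of the 9 values in 38.5% of these 78 genes, beside 24.8% of all tested genes. The same share in the span ran from 10.3% to 32.1% in the other mice. Close to H2-T23, Gm8801 and A930015D03Rik, noted after their values were seen, were 3.16-fold and 2.01-fold above the median of the others in KO_ST 2. C2 and D17H6S56E-5, elsewhere in the span, were 2.50-fold and 2.09-fold above it. Lower in that mouse were H2-DMb1 and H2-Eb1, at 0.135 and 0.138 of the median (7 and 9 reads), and H2-Q1, with 0 reads.

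**Figure D4:**
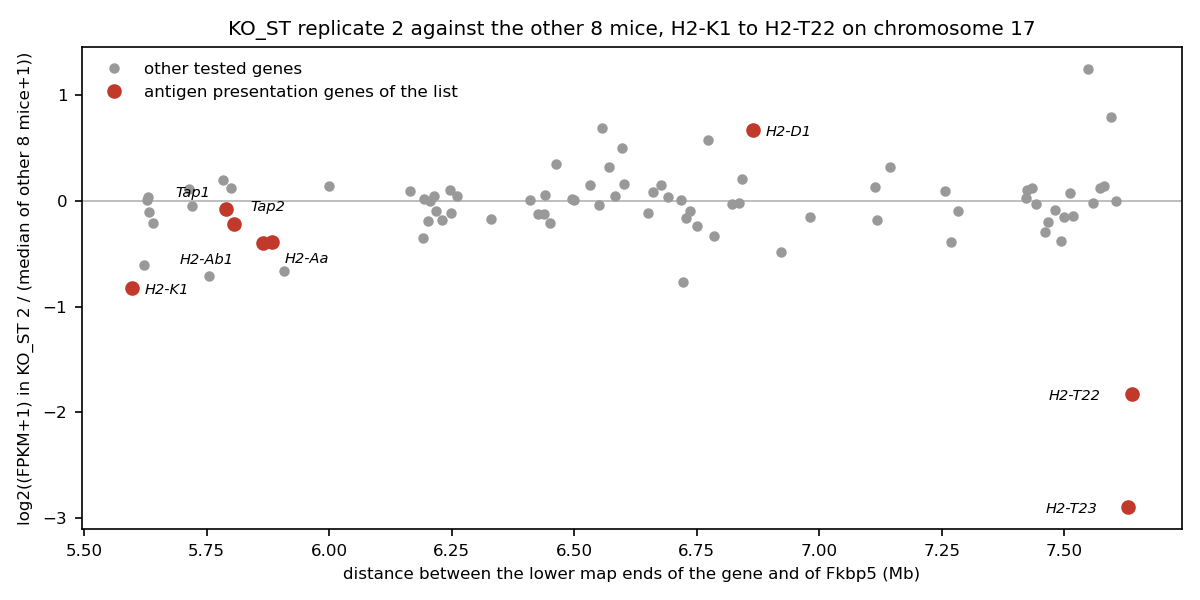
Log2 ratio of FPKM+1 in KO_ST 2 to the median of the other 8 mice plus 1 (vertical axis) for the 86 tested genes from H2-K1 to H2-T22, by distance along chromosome 17 from Fkbp5 in Mb. Most genes lie near 0, H2-T22 and H2-T23 at the far end are at -1.83 and -2.90, and H2-D1 is at 0.67.

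B2m, the light chain shared by class I molecules, was at 56.0, 51.3 and 58.8 FPKM in CT, at 67.0, 57.5 and 45.3 in WT_ST and at 50.1, 53.2 and 74.4 in KO_ST. The CT values lay within those of both stressed groups, and the group means were 59.2 ± 13.2 FPKM in KO_ST, 56.6 ± 10.9 in WT_ST and 55.4 ± 3.78 in CT (SD, n = 3 each). The 95% interval of its log2 fold change was -0.28 to 0.31 in WT_ST against CT and -0.26 to 0.41 in KO_ST against CT. No correlation of B2m with the more abundant classical chain, H2-D1, was detected (r = 0.02, rho = 0.10, adjusted p 0.953 and 0.810 by exact permutation). Without CT 2 and KO_ST 2 that r was -0.03.

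Of the transporter subunits, Tap2 was at 2.49, 2.53 and 2.50 FPKM in CT, at 2.66, 2.33 and 2.16 in WT_ST and at 2.05, 1.97 and 2.42 in KO_ST. All 3 KO_ST values were below all 3 CT values. Tap2 in KO_ST against CT was the only case, among the members and the 3 comparisons, in which the ranges of 2 groups were apart. Over all tested genes the ranges were apart for 16.5% in KO_ST against CT, 14.0% in WT_ST against CT and 11.1% in KO_ST against WT_ST. Its log2 fold change was -0.12 (SE 0.077, adjusted p = 0.645, limma). Tap1 was at 0.869, 0.663 and 1.02 FPKM in CT, at 1.05, 0.849 and 0.567 in WT_ST and at 0.703, 0.727 and 0.799 in KO_ST. Its KO_ST mice were close together and inside the range of CT. Tap1 and Tap2 correlated with r of 0.56 and rho of 0.42 (adjusted p 0.230 and 0.469 by exact permutation), and r was 0.08 without WT_ST 1 and WT_ST 3.

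The class II genes moved together from mouse to mouse, and their groups overlapped. H2-Aa was at 1.80, 1.10 and 1.56 FPKM in CT, at 2.59, 0.868 and 0.639 in WT_ST and at 0.736, 0.774 and 1.58 in KO_ST. H2-Ab1 was at 1.63, 0.968 and 1.09 FPKM in CT, at 2.31, 0.892 and 0.866 in WT_ST and at 0.559, 0.534 and 1.39 in KO_ST. Cd74, the invariant chain, which lies outside the complex on chromosome 18, was at 3.32, 1.56 and 2.88 FPKM in CT, at 3.62, 1.51 and 1.34 in WT_ST and at 1.35, 1.47 and 2.69 in KO_ST. For each of these genes WT_ST 1 was the highest mouse, and every pair of groups overlapped. H2-Aa correlated with Cd74 at r of 0.96 and rho of 0.98 (adjusted p 8.27e-05 and 0.000298, exact permutation over 6 pairs) and with H2-Ab1 at r of 0.93 and rho of 0.93 (adjusted p 0.00105 and 0.00225). Without CT 1 and WT_ST 1 r was 0.95 and 0.77, and within groups, on deviations from group means, it was 0.96 for both. H2-D1 and Cd74 correlated with r of -0.35 and rho of -0.38 (adjusted p 0.512 and 0.469), and with r of -0.56 without CT 2 and KO_ST 2.

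In KO_ST against CT the log2 fold changes of H2-Aa, H2-Ab1 and Cd74 were -0.28 (SE 0.17), -0.27 (SE 0.18) and -0.31 (SE 0.23). None passed the call, with adjusted p of 0.625, 0.664 and 0.698 in limma. Without KO_ST 3, whose values were the highest of that group, H2-Aa (-0.45) and H2-Ab1 (-0.47) passed it, and without CT 2 Cd74 did (-0.52). Without CT 1, none of the 3 passed it, at -0.18 for H2-Aa, -0.15 for H2-Ab1 and -0.15 for Cd74. In WT_ST against CT, H2-Aa passed it without WT_ST 1 (-0.48). The 3 genes summed to 3.63 to 6.76 FPKM in CT, 2.85 to 8.52 in WT_ST and 2.65 to 5.66 in KO_ST.

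Markers of immune cells, among them those that can carry class II molecules, were set beside these values. The 10 microglia markers summed to 153.3 to 188.5 FPKM in CT, 118.4 to 138.1 in WT_ST and 69.5 to 137.2 in KO_ST. Of the 10, 6 were called lower in WT_ST against CT, 9 in KO_ST against CT and 1 in KO_ST against WT_ST, beside 1.32%, 2.03% and 1.05% of all tested genes called lower, and none was called higher. Whether fewer microglia or less of these RNAs per cell were present cannot be told apart in bulk tissue. The 8 markers of perivascular and meningeal macrophages summed to 3.39 to 5.77 FPKM in CT, 3.02 to 5.77 in WT_ST and 2.51 to 7.68 in KO_ST, with at most 1 of them at 0 and 0 of 5 tested called. The markers of dendritic, B and T cells, 14 of which were listed, summed to at most 2.61 FPKM, with 4 to 8 of them at 0 in each mouse. The part of these cells in the class II levels was not tested.

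**Figure D5:**
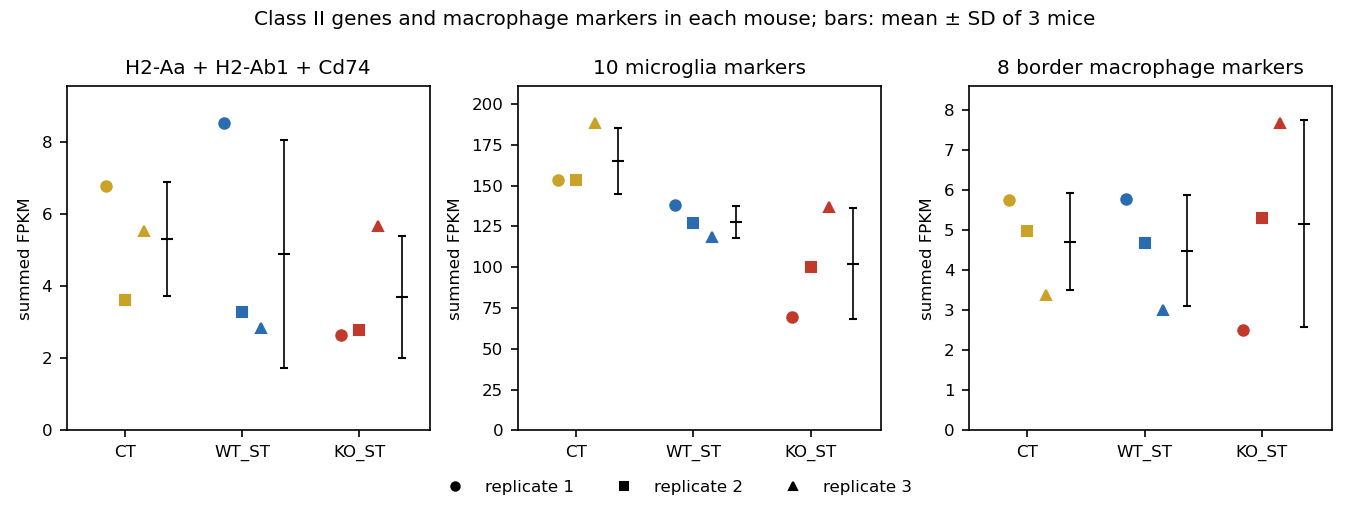
Summed FPKM (vertical axes, from 0) of H2-Aa, H2-Ab1 and Cd74, of 10 microglia markers and of 8 perivascular and meningeal macrophage markers in each mouse, by group, with mean ± SD of 3 mice. The microglia sum of every WT_ST and KO_ST mouse is below that of every CT mouse, whereas the class II sum overlaps between all groups.

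Besides the members, 81 genes of antigen processing, class I and class II presentation, interferon response and receptors of class I and related molecules were listed, and 60 were tested in the same fits. In WT_ST against CT 1 of the 60 was called higher and 0 lower, in KO_ST against CT 0 higher and 4 lower, and in KO_ST against WT_ST 0 in either direction. Over all tested genes 1.16% were called higher and 1.32% lower in the first comparison, 1.54% and 2.03% in the second, and 0.946% and 1.05% in the third. The median log2 fold changes of the 60 genes were 0.01, -0.03 and -0.05. With the members counted in, the lists are given apart, first for KO_ST against CT. Of the 13 tested genes of the class II list, 12 had a log2 fold change below 0 and 1 was called lower, with a median of -0.26. That list also holds genes other than class II chains, such as Ctss, Lgmn and Rfx5. The 28 interferon response genes had 14 below 0, 3 called lower and a median of -0.01. The 15 class I heavy chains had 8 below 0, 0 called and a median of -0.03, and the 14 genes of peptide loading and processing had 8 below 0, 0 called and a median of -0.05. Over all 14370 tested genes, 7046 were below 0 and the median was 0.00243. In the same order of lists, 10, 12, 5 and 6 genes were below 0 in WT_ST against CT, beside 6997 of all tested genes. In KO_ST against WT_ST they were 11, 20, 8 and 11, beside 7290. These counts are a description, with no test of the lists. None of the 6 receptor genes, such as Pirb and Cd8a, which bind class I molecules, had enough reads to be tested.

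Canx, encoding calnexin, the chaperone that folds new class I heavy chains, was at 49.7, 65.8 and 50.4 FPKM in CT, at 80.0, 76.4 and 75.9 in WT_ST and at 80.3, 73.4 and 53.5 in KO_ST. WT_ST mice were all above CT mice, with a log2 fold change of 0.48 (SE 0.11, adjusted p = 0.542, limma), and leaving out any mouse kept it between 0.41 and 0.62. H2-DMb1, a chain of the molecule that loads peptides onto class II, was at 1.26, 0.878 and 1.03 FPKM in CT, at 1.01, 0.769 and 0.348 in WT_ST and at 0.300, 0.111 and 0.724 in KO_ST. All KO_ST values were below all CT values, and the log2 fold change was -0.57 (SE 0.16, adjusted p = 0.470, limma). In KO_ST 2 the gene rested on 7 reads, and without that mouse the value was -0.43.

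The other 3 called genes act in interferon signalling. Irf8, a transcription factor of microglia and other myeloid cells, was at 1.60, 1.79 and 2.39 FPKM in CT and at 0.830, 1.14 and 1.74 in KO_ST, overlapping, with a log2 fold change of -0.37 (adjusted p = 0.523, limma). The chains of interferon receptors, Ifngr1 and Ifnar2, did not overlap between these groups. Ifngr1 was at 6.12, 6.22 and 6.94 FPKM in CT and 4.32, 4.85 and 5.78 in KO_ST (-0.29, adjusted p = 0.499, limma), and Ifnar2 at 8.73, 9.32 and 10.6 in CT and 7.46, 7.64 and 7.60 in KO_ST (-0.27, adjusted p = 0.489, limma). Irf8 lost its call without CT 2 (-0.39), CT 3 (-0.27), KO_ST 1 (-0.25) or KO_ST 2 (-0.35), Ifngr1 without CT 3 (-0.24), KO_ST 1 (-0.21) or KO_ST 2 (-0.28), and Ifnar2 without CT 3 (-0.20) or KO_ST 1 (-0.26). These changes stood beside the lower microglia markers of KO_ST mice, whose part in them was not tested.

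The genes whose pattern over the 9 mice was most like that of the members were found by Pearson's r to the mean standardized value of each class, and are given as a description. For the 7 class I genes these were Man1c1 (r = 0.97), Supt3 (0.96), Camta2 (0.95), Mcm7 (0.91) and Emilin1 (0.91). Man1c1 ran from 11.1 FPKM in KO_ST 2 to 12.99 FPKM in WT_ST 1, a narrow range. Among the members themselves, r to this mean was 0.93 for H2-K1 and -0.32 for H2-D1. For the 3 class II genes they were Maf (0.96), encoding a transcription factor of macrophages, Tgtp2 (0.95), an interferon-induced GTPase, Rabl3 (0.95), Emilin1 (0.93) and H2-Eb1 (0.92), a further class II chain. Maf ran from 2.01 FPKM in KO_ST 1 to 3.11 FPKM in WT_ST 1, which was also the mouse with the highest H2-Aa, H2-Ab1 and Cd74.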

How the data were processed

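FPKM and read counts per gene were deposited by the authors for each of 9 mice, 1 file a mouse. Per the study's methods, stranded mRNA libraries were sequenced as 101-base pairs, aligned with HISAT2 and Bowtie2 to GRCm38 and assembled with StringTie. The submitters' processing notes give versions 2.1.0, 2.3.4.1 and 1.3.4d of these tools. Groups came from the labels. FPKM values were quantile-normalized over all mice as log2(FPKM+1), genes with a mean of at least 30 reads were kept (14370 of 24532), and 2 groups at a time were compared with limma 3.58.1 in R 4.3.3 (trend; p under 0.05 and fold above 1.2, as in the study's rule; Benjamini-Hochberg adjusted p beside it). Limma replaced the gene-by-gene test. Alternatives were edgeR 4.0.16 and DESeq2 1.42.0 on read counts, other pseudocounts, filters and normalizations, and each mouse left out. Fits were tested on simulated data. Correlations used exact two-sided permutation (scipy 1.17.1). No libraries were alike within counting noise (lowest chi-square per degree of freedom 18.7). Promoters and transcripts came from RefSeq and GENCODE for GRCm38, and motifs were searched in the 250 upstream bases and, for the share over all promoters, the same length. The members and lists were chosen with earlier results of these data known. Besides the members, genes of wider lists were named where called, and the 5 most alike in pattern to each class.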

Additional observations from a re-analysis of the deposited data

How the results depend on the processing

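With 1 mouse left out in turn, the list had 0 to 2 members called in WT_ST against CT, 0 to 5 in KO_ST against CT and 0 to 1 in KO_ST against WT_ST. A replicate block called 1 member in WT_ST against CT (H2-T23, -0.36) and 0 in the others; the replicate numbers did not pair the mice (mean r of deviations -0.0101 for shared and 0.00494 for other numbers). All 9 mice in 1 fit called 1 member in KO_ST against CT (H2-D1, 0.56). Under the other alternatives run on all mice, 0 members were called.

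Genes called in WT_ST against CT went from 355 to 544 (pseudocount 0.1), 535 (edgeR, TMM or RLE), 700 (edgeR without filter), 552 (DESeq2) and 164 (unmoderated test), and to 277 to 544 with a mouse left out. In KO_ST against CT they went from 512 to 843 (edgeR without filter) and 248 (unmoderated), and to 411 to 739 with a mouse left out. In KO_ST against WT_ST they went from 287 to 445 (pseudocount 0.1), 544 (edgeR without filter) and 138 (unmoderated), and to 245 to 477 with a mouse left out. The share of higher calls was 46.8% and 43.2% in the comparisons with CT, and 34.1% and 28.5% without quantile normalization; with edgeR TMM it was 33.1% and 37.6%. The cause was not tested.

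Signs turned for some members and for a correlation, none of them past its threshold. Tap1 in WT_ST against CT was -0.0272 without quantile normalization, -0.0352, -0.0354 and -0.0382 with edgeR (TMM, RLE and no filter) and -0.0358 with DESeq2. The correlation of H2-D1 with B2m was -0.0175 on FPKM and -0.0956 on deviations from group means. With a mouse left out, log2 fold changes in WT_ST against CT ran from -0.104 to 0.156 for B2m, -0.0866 to 0.118 for Tap1, -0.0114 to 0.303 for H2-K1, -0.207 to 0.222 for H2-Ab1, -0.270 to 0.00326 for H2-T22, -0.475 to 0.105 for H2-Aa and -0.0934 to 0.0315 for Tap2. In KO_ST against CT they ran from -0.109 to 0.00612 for Tap1, -0.960 to 0.0302 for H2-T22 and -0.0944 to 0.190 for B2m, and in KO_ST against WT_ST from -0.163 to 0.0406 for Tap1, -0.379 to 0.199 for H2-Aa, -0.306 to 0.210 for Cd74, -0.109 to 0.180 for B2m, -0.855 to 0.136 for H2-T22 and -1.50 to 0.177 for H2-T23. In edgeR without KO_ST 2, added after seeing the data, H2-K1 and H2-T22 were 0.0606 and 0.0130 against CT, and H2-T22 and H2-T23 0.192 and 0.232 against WT_ST. Irf8, Ifngr1 and Ifnar2 lost their calls in some of these fits; Canx and H2-DMb1 did not where they were tested. The number of mice, 3 a group, and the 30 to 140 reads of the class II chains limit what could be detected.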
